A study of Homo sapiens with 8 samples.

Results

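The measurements are the regions of chromatin carrying acetylation of histone H4 at lysine 16 (H4K16ac) in KGN cells without treatment and in KGN cells given 1 mM butyrate for 6 h. They are 2 of the 8 libraries of the series, 1 library per condition, and were chosen by their antibody label. KGN is an established line from a human ovarian granulosa cell tumour, and per the labels both cultures were at passages 5 to 8. The other 6 libraries are H3K9ac (acetylation of histone H3 at lysine 9), a nonspecific immunoglobulin (IgG) and input chromatin from the same conditions, and of these the H3K9ac and IgG peak lists were used for comparison. KGN cells are 1 tumour line, so other granulosa cells are not represented. After overlapping rows were merged, the control list held 73586 H4K16ac peaks and the butyrate list 33752.

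A peak is a stretch where sequenced fragments pile up above the local background. The peak names in both H4K16ac lists carry the letters k12, and the files do not tell whether a different antibody was used. With 1 library per condition, treatment and library cannot be told apart. None of the differences below carries a test or a p-value. In the text, lost means a peak in the control list with no overlapping peak in the butyrate list, gained means the reverse, and a kept peak has at least 1 bp of overlap. A gene is called kept when it has a promoter peak in both lists, whether or not the peaks overlap. A lost peak is one that did not pass the limit of the list, which does not show that acetylation was absent.

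H4K16ac is placed mainly by the acetyltransferase KAT8, working within the MSL and NSL complexes. It loosens the packing of nucleosomes and is known from the bodies and starts of transcribed genes. Zinc-dependent histone deacetylases and the sirtuins, which use NAD, remove such marks. Butyrate, a short-chain fatty acid made by gut bacteria, inhibits many of the zinc-dependent enzymes and not the sirtuins.

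The promoters of 3 genes are shown, picked by the q value of the peak caller, which is defined below. The first heads the lost genes with no butyrate peak in the gene or within 10 kb. The second heads the genes with a promoter peak in both lists. The third heads the gained genes with no control peak in the gene or within 10 kb. In this order they are RFC4, a subunit of the clamp loader of DNA replication, LENEP, a lens protein gene, and NUTM2D. NUTM2D is a member of the NUTM2 gene family, whose near-identical copies make its reads uncertain. Each sequence is the 250 bases before the RefSeq start (GRCh38.p14), read 5′ to 3′ on the gene's strand. Capitals mark CG dinucleotides, the sites of DNA methylation. RFC4 lies at chr3:186806483-186806732 on the minus strand, LENEP at chr1:154993336-154993585 on the plus strand and NUTM2D at chr10:87357494-87357743 on the plus strand.
RFC4: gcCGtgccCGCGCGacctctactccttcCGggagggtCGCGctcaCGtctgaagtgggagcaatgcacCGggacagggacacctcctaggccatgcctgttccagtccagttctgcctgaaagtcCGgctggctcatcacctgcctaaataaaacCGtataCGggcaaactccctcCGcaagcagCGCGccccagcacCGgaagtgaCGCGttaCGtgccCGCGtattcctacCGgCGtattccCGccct
LENEP: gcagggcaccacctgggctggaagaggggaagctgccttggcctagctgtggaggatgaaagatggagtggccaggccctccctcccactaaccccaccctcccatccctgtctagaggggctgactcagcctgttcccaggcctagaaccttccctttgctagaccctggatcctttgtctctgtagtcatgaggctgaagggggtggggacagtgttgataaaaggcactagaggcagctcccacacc
NUTM2D: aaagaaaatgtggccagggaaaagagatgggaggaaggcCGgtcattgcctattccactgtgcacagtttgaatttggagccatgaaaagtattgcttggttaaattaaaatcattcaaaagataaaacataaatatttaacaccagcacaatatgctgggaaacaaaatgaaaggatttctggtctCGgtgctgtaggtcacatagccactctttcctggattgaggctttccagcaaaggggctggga
The RFC4 stretch holds 24 CG, the LENEP stretch 0 and the NUTM2D stretch 2. The median over 15813 promoters with a sequence was 17 CG, and 96.7% of them held at least 1. The median was 20 over the promoters of 2901 genes with a lost promoter peak and 14 over 357 with a kept one. For genes with a gained or with no promoter peak, under 80% had a sequence (77.7% and 79.4%), which is too few for this comparison. The RFC4 control peak covered -532 to -172 bp relative to the start and so reached into the printed sequence. The LENEP peaks lay at 349 to 627 bp in control and 757 to 1182 bp with butyrate, and the NUTM2D peak at 465 to 758 bp, all downstream of the starts.

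The butyrate list was shorter than the control list and mostly made of other positions. Its 33752 peaks were 0.459 times the number in control, and they covered 11.9 Mb against 30.7 Mb. Of the control peaks, 4529 were kept (6.15%, exact 95% interval 5.98 to 6.33%, which covers counting only) and 69057, or 93.8%, were lost. In the butyrate list 29219 peaks, or 86.6%, were gained. The butyrate library was the deeper of the 2, with a depth implied by the peak values of 23.8 M reads (M, 1000000 reads) against 17.4 M in control. The IgG lists held 5 and 2 peaks, and no H4K16ac peak overlapped one of the same condition.

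Counts of nearby peaks include the overlapping ones and are therefore larger. Within 1 kb of a butyrate peak lay 11481 control peaks (15.6%), the 4529 kept ones included, and within 10 kb 52.3%. Of the butyrate peaks, 29.6% lay within 1 kb of a control peak, the 4533 overlapping ones included. Of the 29219 gained butyrate peaks, 23763 had no control peak within 1 kb. Some butyrate peaks thus stood near control peaks without covering the same bases. The share for peaks placed at random was not computed.

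Most peaks of both lists were weak. The lists hold peaks up to a p of 0.005, with q, the false discovery rate of the peak caller, of up to 0.304 in control and 0.621 with butyrate. At a q of 0.05 or less the control list kept 29141 peaks (39.6%) and the butyrate list 381 (1.13%). The median peak had 9 fragments at its summit in control over a local background of 2.24, and 10 fragments over 2.42 with butyrate. The median fold over background was 2.94 in control and 2.85 with butyrate, and the highest was 7.23 and 6.61. The median −log10 p was 3.69 in control and 3.19 with butyrate. The 2 lists thus had similar ranges of fragments and fold, but differed in number and in the share of peaks passing the q limit.

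Peaks with more fragments at the summit were kept more often. Of the control peaks with 6 or 7 fragments 3.94% overlapped a butyrate peak, of those with 10 to 12 fragments 7.75%, and of the 219 with 25 or more 26.9% (21.2 to 33.3%). In the butyrate list the share was 9.24% at 7 fragments, 14.1% at 10 to 12 and 44.8% (36.6 to 53.3%) among the 145 peaks with 25 or more. Kept control peaks were also wider, with a median of 438 bp against 353 bp for lost ones. Wider peaks have more bases with which to overlap, and the part of width in this difference was not tested.

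**Figure D1:**
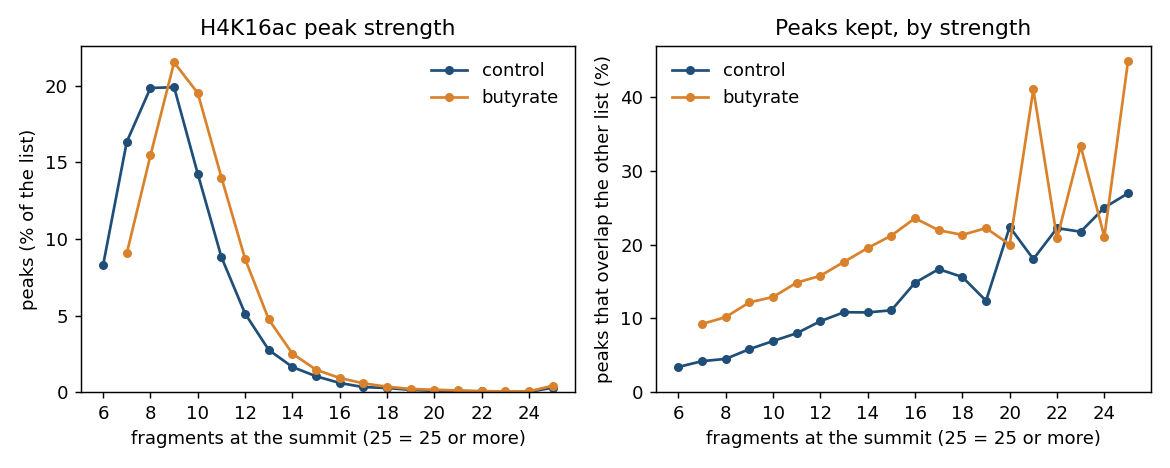
Left, share of each H4K16ac list (y axis, percent of peaks) by the fragments at the summit (x axis, 25 standing for 25 or more), for control and butyrate. Right, share of those peaks that overlap the other list. Fragments are not corrected for the local background. Most peaks have about 7 to 12 fragments and few are kept, and the bins above 17 fragments hold few peaks and scatter.

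A promoter peak here is one with any base no farther than 1 kb from any start of a gene, and a gene can have several starts. Of 19658 protein-coding genes, 3831 (19.5%) had one in control and 960 (4.88%) with butyrate. In all 3387 genes lost it, which is 88.4% of those with one in control, 516 gained one, which is 3.26% of those without, and 444 had one in both lists. In 162 of the 444 the 2 peaks overlapped. At a q of 0.05 or less, 2140 genes (10.9%) had a control promoter peak and 2136 of them (99.8%) had none with butyrate.

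The strongest lost promoter peaks were taken from genes with no butyrate peak within the gene or 10 kb of it, which left 885 of the lost genes. The first 15 by −log10 q are RFC4, RPL37, BRD2, MORF4L1, DTYMK, CDPF1, NCOA3, CBR1, NOSIP, PRRG2, HINT1, ARPP19, AMDHD1, CCDC38 and FBXO4, and 6 of them are described here, chosen after their values were seen. RFC4 had 17 fragments at the summit of its control peak (chr3:186806654-186807014), 6.04 times the background, and no listed butyrate peak. RPL37, a protein of the large ribosomal subunit, had 25 fragments in control and none listed with butyrate. BRD2, a bromodomain protein that reads acetylated histones, had a control peak 2128 bp wide with 17 fragments. MORF4L1, a chromodomain protein of the NuA4 acetyltransferase complex, also had 17. DTYMK, the thymidylate kinase that feeds DNA synthesis, had 14, in a peak shared with ING5, whose protein belongs to acetyltransferase complexes. NCOA3, a coactivator of nuclear receptors, had 16 at its promoter and 21 peaks in its body in control, and 0 in its body with butyrate. Each of these promoters carried H3K9ac both without and with butyrate.

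Few promoter peaks in the butyrate list were strong. At a q of 0.05 or less there were 8, at MRPL24, LENEP, MSMP, TMCO6, ABCC10, CEP20, TMEM63A and NUTM2D. MRPL24, a protein of the mitochondrial ribosome, had 14 fragments in control and 17 with butyrate, and its peak was 252 bp wide in control and 1322 bp with butyrate. LENEP had 12 and 16 fragments, MSMP, a secreted microseminoprotein, 8 and 15, and ABCC10, an efflux transporter, 11 and 15. At CEP20, TMEM63A and NUTM2D no control promoter peak was listed, and the butyrate peaks had 14, 15 and 14 fragments. Set beside the lost promoters, these summits are of similar height, but they stand in a list with a higher local background.

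Among the 98 gained genes with no control peak in the gene or within 10 kb, NUTM2D was followed by KCNIP3, a calcium-binding protein of neurons, with 13 fragments. STRA6, the receptor that takes up retinol, also had 13 and carried 5 butyrate peaks in its body against 0 in control. HLA-DMA, which helps load peptides on class II molecules, had 16 fragments over a background of 3.69. IL34, a cytokine for macrophages, had 11, over a background of 2.09. NUTM2D, HLA-DMA, LAX1, IL34, ACTL7B and PRODH2 had no H3K9ac promoter peak in either condition, while the other 4 of the first 10, among them MED7 and TMEM147, had one with butyrate.

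The next 3 lists cover the genes that make proteins. Of the 81 genes of the cytosolic ribosome, 46 (56.8%) had a peak at the promoter in control and 1 had one with butyrate, so 45 were lost beside the 88.4% lost over all genes with a control peak. The exception was RPL29, with 10 fragments in control and 9 with butyrate, in peaks that did not overlap. RPS18 had 13 and RPS3A 11 in control, and neither was listed with butyrate. Of 70 translation factor genes 21 had a control promoter peak and 0 a butyrate one, among them EIF4G1, the scaffold of the cap-binding complex, with 13 fragments, and EEF1A1, the elongation factor, with 9. Of 33 tRNA synthetase genes the count was 16 in control and 3 with butyrate, and SARS1, QARS1 and YARS1 were the 3, all with a peak in both lists. Of the 16 tRNA synthetase genes with a control promoter peak 13 were lost (81.2%), near the 88.4% of all genes. The 3 of 33 with butyrate are 9.09%, beside 4.88% of all genes, and counts this small do not set the list apart.

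The H3K9ac lists behaved otherwise at the same genes. Of the 81 cytosolic ribosome genes 79 had an H3K9ac promoter peak in control and 79 with butyrate. For the translation factors these counts were 61 and 64. The missing H4K16ac peaks therefore did not go with missing H3K9ac peaks at these promoters.

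Of 77 genes of the mitochondrial ribosome 38 had a peak at the promoter in control, against 7 with butyrate, 6 of them kept. The 32 lost are 84.2% of the 38, near the 88.4% of all genes. MRPS27 had 12 fragments at its start and 22 peaks in its body in control, and 1 in its body with butyrate. Of 80 respiratory chain genes 35 had a peak at the promoter in control, against 5 with butyrate, and 94.3% of the 35 were lost. NDUFC2, a subunit of complex I, had 20 in control and 18 with butyrate over backgrounds of 8.02 and 6.69. NDUFS3, UQCR11 and NDUFS7 were gained with 9, 9 and 7 fragments.

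Of 48 proteasome genes 16 had a peak at the promoter in control, against 0 with butyrate. All 16 were thus lost, beside 88.4% over all genes. PSMB8, a subunit of the immunoproteasome, had 17 fragments in control and PSME3, a proteasome activator, 14. In the bodies of these genes the lists held 121 control and 19 butyrate peaks, a ratio of 0.157, beside 0.345 over all genes. Of 83 chaperone genes 29 had a peak at the promoter in control, against 4 with butyrate, so that 89.7% were lost, near the share over all genes, and their bodies held 204 and 48 peaks (0.235). The HSP70 gene HSPA1L, which lies beside its near-identical relatives HSPA1A and HSPA1B, lay under the widest control peak of all (4604 bp, 25 fragments). That peak overlapped a butyrate peak, but none reached within 1 kb of the HSPA1L start.

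Of 73 splicing genes 34 had a peak at the promoter in control, against 2 with butyrate. SNRPA, a U1 snRNP protein, had 16 fragments in control and SF3B4, a U2 snRNP protein, 15 in a peak 3069 bp wide. Of 32 RNA polymerase genes the promoter counts were 11 and 2, and POLR2A, the largest subunit of polymerase II, had 12 fragments in control. Of 30 Mediator genes 8 had a peak at the promoter in control, against 3 with butyrate, 2 of these gained, MED7 with 12 fragments and MED29 with 7. In the splicing, polymerase and Mediator lists 97.1%, 90.9% and 87.5% of the genes with a control promoter peak were lost, beside 88.4% over all genes.

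Genes of DNA replication and the cell cycle had 1 and 2 promoter peaks with butyrate. Of 50 replication genes 19 had a peak at the promoter in control, and the 1 with butyrate, at RFC5, was gained with 8 fragments. RRM1, the large subunit of ribonucleotide reductase, had 34 fragments over a background of 8.82 in control. Of 35 cell cycle genes 16 had a peak at the promoter in control, against 2 with butyrate. CDKN1B, the CDK inhibitor p27, had 17 fragments in control and E2F4 14, and BUB1, a spindle checkpoint kinase, was kept with 10 in each list. Of 67 replication-dependent histone genes 15 had a peak at the promoter in control, against 0 with butyrate, and since these genes are near-identical copies their reads are uncertain. In the replication, cell cycle and histone lists 100%, 93.75% and 100% of the genes with a control promoter peak were lost, beside 88.4% over all genes.

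In the bodies of 34 acetyltransferase and reader genes there were 185 control and 30 butyrate peaks (0.162), and of their promoters 11 had a peak in control and 1, at BRD9, in both lists. Of 11 genes of the KAT8, MSL and NSL group 6 had a peak at the promoter in control, against 2 with butyrate, and their bodies held 90 and 16 peaks. Lost were 90.9% of the control promoter peaks in the first list and 66.7% (4 of 6) in the second, beside 88.4% over all genes. MSL1, the scaffold of the MSL complex, had 14 fragments at its control promoter peak and KANSL3, of the NSL complex, 10, and neither was listed with butyrate. MCRS1 and WDR5 had a promoter peak in both lists, which at WDR5 do not overlap, with 10 and 9 fragments in control and 11 and 7 with butyrate. Of 23 deacetylase and sirtuin genes 7 had a peak at the promoter in control and all 7 were lost, beside 88.4% over all genes, among them HDAC6 with 14 fragments and 10 body peaks against 0 with butyrate. HDAC1 was gained, with 11 fragments.

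Of 47 genes of lysine methylases and demethylases 13 had a promoter peak in the control list and 4 in the butyrate list, and their bodies held 366 and 58 peaks (0.158). EZH2, which methylates histone H3 at lysine 27, had 13 fragments in control and none listed at its promoter with butyrate, and KDM6B, which removes that mark, was gained with 8. The 50 USP genes, which cut ubiquitin from proteins, had the lowest ratio of the lists drawn by gene body (375 and 57 peaks, 0.152), with 14 and 3 promoters. The 43 kinesins, motors that walk on microtubules, had 12 and 1 promoters and 269 and 60 body peaks (0.223). The 62 RAB genes, GTPases of vesicle traffic, had 11 and 2 promoters and 177 and 55 body peaks (0.311). In the methylase, USP, kinesin and RAB lists 84.6%, 78.6%, 100% and 90.9% of the genes with a control promoter peak were lost. Over all genes the share was 88.4% and the body ratio 0.345.

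Of 25 genes of granulosa identity and function 4 had a peak at the promoter in control, against 4 with butyrate, 1 of them kept, and their bodies held 41 and 37 peaks (0.902). The 3 lost are 75% of the 4, beside 88.4% over all genes. Body ratios near 1 were also found in lists of other tissues, with 0.978 in keratin genes. AMHR2, the receptor for anti-Müllerian hormone, had 11 fragments in control (chr12:53423390-53423799) and 13 with butyrate (chr12:53422962-53423853). INHA, the inhibin alpha subunit, had 10 fragments and ESR2, the estrogen receptor beta, 9, in control alone. NR4A1, SMAD3 and CYP19A1 were gained with 11, 11 and 8 fragments. SMAD3, which carries TGF-beta and activin signals, also had 7 body peaks in control and 14 with butyrate. These are small counts, and body peaks of single genes vary by counting alone.

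For steroid hormone synthesis the lists gave 6 of 27 promoters in control and 1 with butyrate (22.2% and 3.70%). Over all genes these shares were 19.5% and 4.88%, so this list lay near them. CYP11A1, the side-chain cleavage enzyme that starts the pathway, had 13 fragments in control and none listed at its promoter with butyrate, while its body held 8 and 7 peaks. HSD17B1, which makes estradiol, had 10 fragments in control alone. CYP19A1, the aromatase, was the gained gene, with a peak of 236 bp, the narrowest the list allows, and no H3K9ac promoter peak in either condition. The bodies of the 27 genes held 80 control and 31 butyrate peaks (0.388, beside 0.345 over all genes).

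Of 31 PPAR and fatty acid oxidation genes 7 had a peak at the promoter in control, against 3 with butyrate, with RXRB and PPARA gained at 12 and 10 fragments. Of 27 cholesterol synthesis genes the counts were 8 and 1, with EBP kept. Of 25 TGF-beta receptor and SMAD genes they were 8 and 3, of 29 apoptosis genes 13 and 2, and of 26 inflammatory genes 4 and 0. In this last group IL6 had 11 fragments and CXCL2 9 in control. SLC16A1, which carries butyrate into cells, had 11 fragments in control and none listed with butyrate. Of 22 AP-1 and immediate early genes all 6 with a control promoter peak were lost, JUND among them with 13 fragments. ATF3 and NR4A1 were gained with 14 and 11. In the PPAR, cholesterol, TGF-beta, apoptosis and inflammatory lists 85.7%, 87.5%, 75%, 84.6% and 100% of the genes with a control promoter peak were lost. Over all genes the share was 88.4%.

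**Figure D2:**
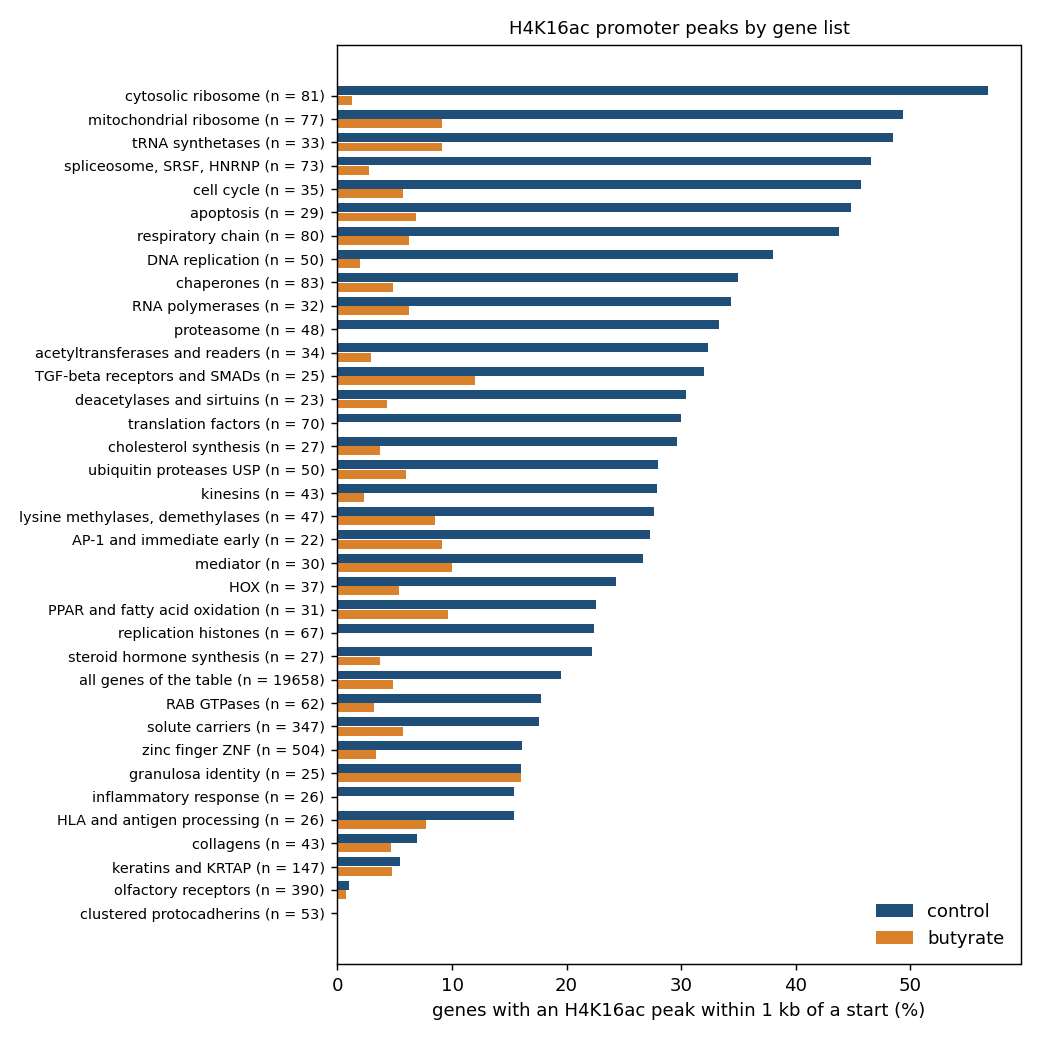
Share of the genes of each list (y axis, n is the number of genes) with an H4K16ac peak within 1 kb of a start (x axis, percent), in control and with butyrate. The cytosolic ribosome is highest in control at 56.8% and has 1.23% with butyrate, beside 19.5% and 4.88% over all genes.

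Keratin, HLA, collagen, olfactory receptor and protocadherin genes can be read against the shares over all genes, 19.5% in control and 4.88% with butyrate. Of 147 keratin and keratin-associated genes 8 had a peak at the promoter in control, against 7 with butyrate (5.44% and 4.76%), and their bodies held 45 and 44 peaks. KRT9 and KRT13 had one in both lists, KRT14, KRT31 and KRT86 were gained with 10, 11 and 11 fragments, and KRT80 was lost with 13. Of 26 HLA and antigen processing genes, where near-identical copies make reads uncertain, 4 and 2 had a promoter peak (15.4% and 7.69%) and the bodies held 21 peaks in each list. Of 43 collagen genes the promoter counts were 3 and 2 (6.98% and 4.65%) and the body peaks 169 and 107 (0.633), and COL16A1 had 0 and 6. These body counts depend on the limit of the lists. At a q of 0.05 or less they were 22 and 2 in keratin, 5 and 0 in HLA and 62 and 3 in collagen genes. With lists of equal length they were 29 and 44, 5 and 21, and 74 and 107 in the same order. Olfactory receptors had promoter peaks at 4 and 3 of 390 genes. The clustered protocadherins had none, and the 22 body peaks counted with butyrate were 1 peak lying in 22 overlapping genes.

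Of 504 ZNF genes 81 had a peak at the promoter in control, against 17 with butyrate, 8 of them kept, and 73 were lost (90.1%, beside 88.4% over all genes). Of 37 HOX genes 9 had a peak at the promoter in control and all 9 were lost, with 88.4% as the share over all genes, and HOXC4, HOXC5 and HOXC6 share 1 peak of 19 fragments. HOXB2 and HOXC8 were gained with 11 and 7 fragments. Of 347 solute carrier genes the counts were 61 and 20, and 83.6% of the 61 were lost, SLC41A3 among them at 17 fragments. SLC39A7, a zinc transporter, was gained at 12. Zinc finger genes with near-identical repeats are uncertain, as are HOX genes that share a start region.

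The marker lists of other cell types were small. Of 12 granulosa markers 6 had an H3K9ac promoter peak in control and 4 an H4K16ac one, INHA, AMHR2, ESR2 and CYP11A1. Over all genes these shares were 55.4% and 19.5%, so H3K9ac at 6 of 12 is not above them. An H3K9ac promoter peak was present in control at 0 of 8 endothelial markers, 1 of 12 blood and immune, 2 of 10 oocyte, 2 of 9 theca and stroma, 3 of 10 epithelial and 2 of 14 neuronal ones. H4K16ac promoter peaks with butyrate stood at 3 of the 8 endothelial markers, beside 4.88% over all genes. They stood at 1 of 12 granulosa, 2 of 12 blood and immune and 1 of 10 oocyte markers. For theca and stroma, epithelial and neuronal markers the counts were 1 of 9, 1 of 10 and 0 of 14. CDH5 and PECAM1 were gained with 12 and 10 fragments. ERG had a peak of 8 fragments in each list, at places that do not overlap. H3K9ac promoter peaks with butyrate stood at 2 of the 8 endothelial markers, ERG among them. CDH5, the cadherin of vessel walls, had 3 body peaks in control and 13 with butyrate without an H3K9ac promoter peak in either condition, PECAM1 had 17 and 7, and the 8 endothelial genes together 36 and 35. At a q of 0.05 or less the 8 endothelial genes had 11 body peaks in control and 0 with butyrate. Their promoter peaks at this limit were 1 in control and 0 with butyrate. At the p limit, peaks of the 2 H4K16ac lists thus also stood at genes whose promoters lacked H3K9ac.

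The difference between gene classes went with H3K9ac at the promoter. Among 10850 genes with an H3K9ac promoter peak in both conditions, 31.7% (30.9 to 32.6%) carried H4K16ac at the promoter in control and 5.24% (4.83 to 5.68%) with butyrate. Among 6976 genes with H3K9ac in neither, the shares were 2.84% (2.46 to 3.26%) and 3.01% (2.62 to 3.44%). Among 1799 genes that gained H3K9ac they were 10.2% (8.81 to 11.7%) and 9.95% (8.61 to 11.4%). So the drop in promoter peaks stood in the genes marked by H3K9ac in both conditions, and in the other classes the intervals overlapped.

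Gene bodies showed the same split. Genes with H3K9ac in both conditions had 7.15 H4K16ac peaks per 100 kb of body in control and 2.03 with butyrate, a ratio of 0.283. In genes with no H3K9ac the densities were 0.685 and 0.601 and the ratio 0.878, and in genes that gained H3K9ac they were 2.12 and 1.86, also 0.878. Over all genes the bodies held 54225 and 18722 peaks, where a peak in overlapping genes counts for each. The H3K9ac-marked genes thus had the higher density in both libraries, and the classes lay closer together with butyrate. When the strongest 33752 control peaks were set against the butyrate list, so that both were equally long, the ratio was 0.629 in genes with H3K9ac in both conditions, 1.94 in genes without it, 1.87 where it was gained and 0.764 over all genes. Genes with H3K9ac in both conditions again had the lowest ratio, but in the classes without it or with it gained the direction turned. At a q of 0.05 or less body peaks fell in each of these classes. They went from 18854 to 128 with H3K9ac in both conditions, from 1300 to 47 without it and from 941 to 28 where it was gained. The gene lists differ in their share of genes with H3K9ac in control, such as 46 of 48 proteasome and 6 of 147 keratin genes. At the p limit the ratio also differed by gene length, 0.534 up to 10 kb, 0.288 from 100 to 200 kb and 0.544 above 500 kb. The parts of H3K9ac and gene length in the ratios of the lists were not tested.

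**Figure D3:**
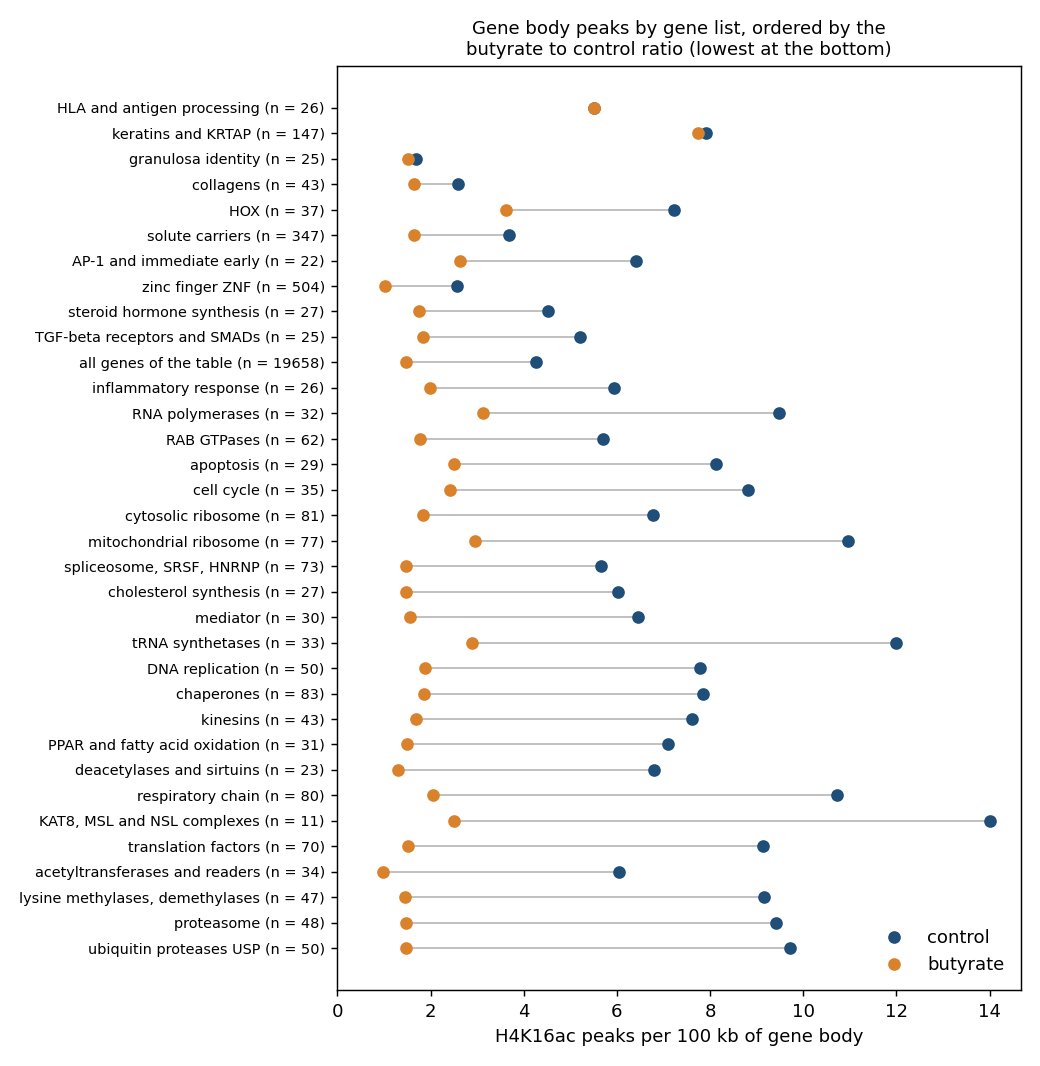
H4K16ac peaks per 100 kb of gene body (x axis) in control and with butyrate for each gene list with at least 20 control body peaks (y axis, n is the number of genes), ordered by the ratio. Of 33 lists 23 have a lower ratio than all genes (0.345), and at the p limit of the lists HLA and keratin genes have nearly equal densities.

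Around gene starts the butyrate list had a gap where the control list had peaks. At the 10883 starts of genes with H3K9ac in control, peak centres per kb and 100 genes were 20.5 in control and 2.24 with butyrate from 1 kb to 0.5 kb before the start. From 0.5 kb before the start to the start they were 10.4 and 0.643, and in the 0.5 kb after it 9.76 and 0.368. Farther out, from 5 kb to 2 kb before the start, they were 11.8 and 5.55, and from 20 kb to 50 kb after it 7.92 and 2.89. Within 500 bp of these starts the control list held 1013 peaks and the butyrate list 54, a ratio of 0.0533 (exact 95% interval 0.0398 to 0.0701, counting only).

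At the p limit of the lists, starts without H3K9ac in control did not have this gap. At the 7646 such starts the densities were 2.04 and 1.73 in the 0.5 kb before the start and 1.96 and 1.18 in the 0.5 kb after it. Within 500 bp the lists held 152 and 110 peaks, a ratio of 0.724 (0.561 to 0.931). From 2 kb to 1 kb before the start the densities were 2.65 and 2.58. The 2 ratios have intervals that do not overlap, but each rests on 1 library per condition. With lists of equal length the ratio was 0.0918 at starts with H3K9ac and 1.53 at starts without, so here too the direction at unmarked starts depends on the length of the control list. At a q of 0.05 or less no butyrate peak was left within 500 bp of either kind of start, against 524 and 60 control peaks.

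**Figure D4:**
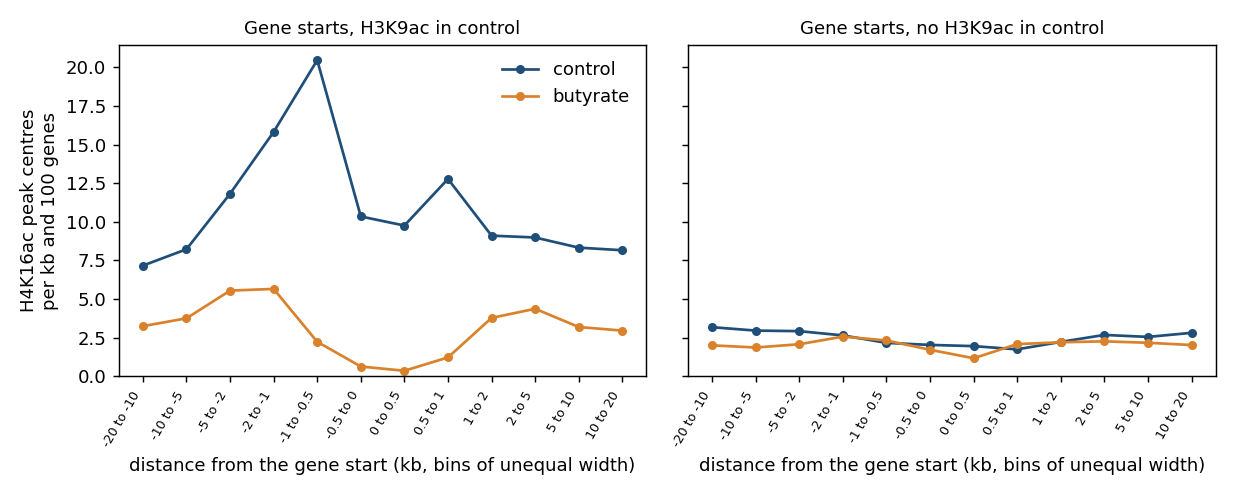
H4K16ac peak centres per kb and 100 genes (y axis) by distance from the gene start (x axis, kb, negative before the start, bins of unequal width), for genes with H3K9ac in control (left) and without (right). On the left the control line peaks at 20.5 and the butyrate line falls to 0.368 after the start, and on the right the lines lie between 1.18 and 3.19.

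The position along the gene differed as well. In 6818 genes of at least 20 kb with H3K9ac in control, the control density went from 6.04 per 100 kb in decile 3 of the gene length (decile 1 holds the start) to 7.77 in decile 10. With butyrate it was 2.31 in decile 1, 1.71 in decile 5 and 1.91 in decile 10. In these genes the control density was thus highest toward the gene end and the butyrate density near the start. In 3580 genes of this length without H3K9ac in control, both were highest in decile 10, where control had 1.44 and butyrate 1.06, beside 0.775 and 0.598 in decile 1. By location in the genome, promoter peaks made up 6.10% of the control and 3.01% of the butyrate list, peaks in gene bodies 67.7% and 51.8%, and intergenic peaks 26.2% and 45.2%.

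Long genes with many peaks gave the clearest single values. CUX1, a homeobox transcription factor of 468 kb (chr7:101816007-102283958), had 156 peaks in control, the most of any gene, and 68 with butyrate, and 23 of the 156 were kept. TRIO had 106 and 14, and SND1, a nuclease of RNA silencing complexes, 85 and 12. CAMTA1, a transcription activator, had 98 and 60, RPTOR, the mTORC1 scaffold, 94 and 37, and IGF1R, the receptor for insulin-like growth factor 1, 83 and 31. All 10 genes with the most control peaks had fewer with butyrate, which their choice by the control value favours.

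Per length, PDGFRB, a growth factor receptor of mesenchymal cells, led the control list with 28 peaks in 42.0 kb, and had 11 with butyrate, and 11 of the 28 were kept. C6orf89 had 36 in control and 1 with butyrate, and BIRC3, an inhibitor of apoptosis, 12 and 1. HS1BP3 had 50 and 30, 20 of the 50 kept. These 4 are among the 10 with the highest control density, by which they were chosen, and with butyrate they had 2.62, 0.175, 0.456 and 3.09 peaks per 10 kb.

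Some genes had more peaks with butyrate. ZFHX3, a homeobox transcription factor of 1109 kb, had 50 in control and 64 with butyrate, of which 4 control peaks were kept. CACNA2D3, a calcium channel subunit, had 35 and 41, SOX13 8 and 17, and PSORS1C1 1 and 8. PGAP2, which remodels GPI anchors, had 14 and 15 with 12 kept and the highest butyrate density, 5.24 per 10 kb. The control peak over the PGAP2 start had a summit of 49 fragments over a background of 16.2, and such a background is well above the median. MYLK, the myosin light chain kinase, was also among the genes with the most butyrate peaks, but had fewer than in control, 42 against 60. The genes of this paragraph were chosen by their number or density of butyrate peaks, which favours more with butyrate.

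Several dense neighbourhoods of control peaks were also dense with butyrate. The 100 kb window with the most control peaks, chr2:20500001-20600000, which holds HS1BP3, had 58 in control and 31 with butyrate, the latter the second highest. A window without a protein-coding gene on chromosome 5 (chr5:173700001-173800000) had 57 and 29. The window with the most butyrate peaks, with BABAM2 and FOSL2, an AP-1 subunit, had 30 and 32. In other windows few were left, such as 54 and 13 in a window of CUX1 and 47 and 12 in a window of RAP1GAP2.

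**Figure D5:**
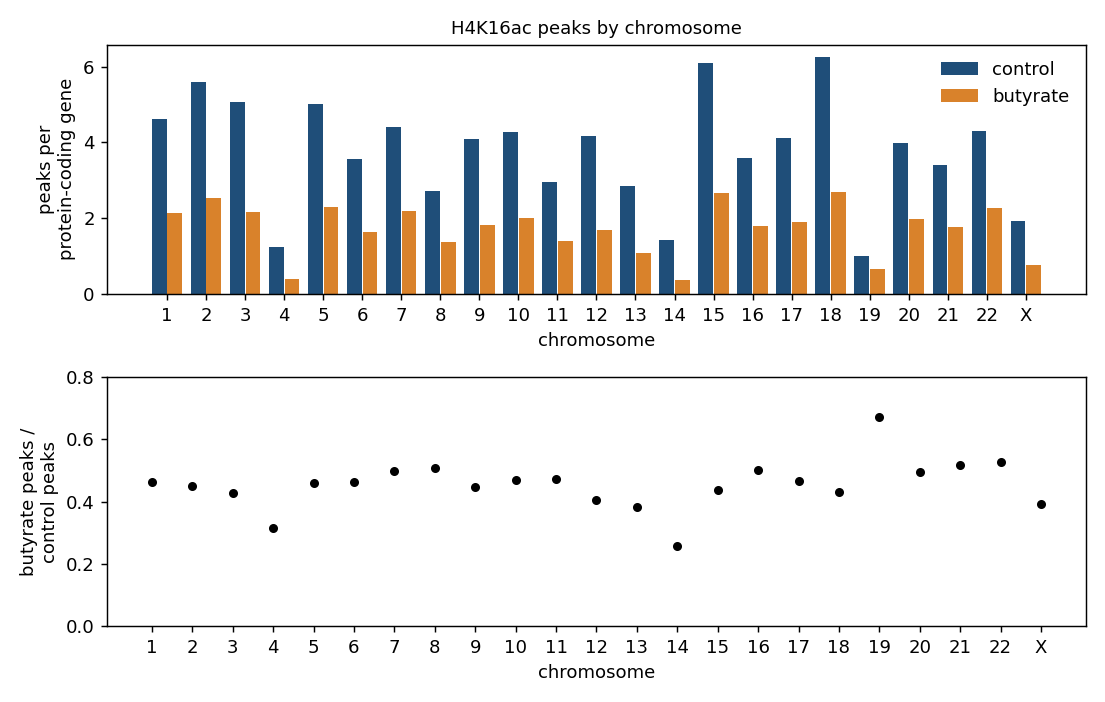
Top, H4K16ac peaks per protein-coding gene (y axis) on each chromosome (x axis) in control and with butyrate. Bottom, butyrate peaks divided by control peaks. Every chromosome shown has fewer peaks with butyrate, from a ratio of 0.256 on chromosome 14 to 0.673 on chromosome 19.

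Chromosomes differed in both density and ratio. Chromosome 14 had 848 peaks in control and 217 with butyrate (0.256), and chromosome 4 had 948 and 300 (0.316). Both had few peaks per gene in control, 1.42 and 1.24, where chromosome 18 had 6.27. The median local background of the peaks also differed by chromosome. In control and with butyrate it was 1.63 and 2.09 on chromosome 14, 1.73 and 2.23 on chromosome 4, and 2.83 and 3.25 on chromosome 6. On chromosome 18, with many peaks per gene, it was 1.90 and 2.23. The part of local coverage in the differences between chromosomes was not tested. Chromosome 19, the most gene-dense, had 0.992 and 0.667 per gene and the highest ratio, 0.673. On chromosome 4, 1.16% of control peaks were kept (0.581 to 2.07%), on chromosome 22 8.08% (6.89 to 9.39%). On the X chromosome the lists held 1627 and 636 peaks (0.391).

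Against the H3K9ac lists, the ratio of butyrate to control peaks was lower at sites marked in control than at gained ones. Of 22215 control H3K9ac peaks 3779 (16.5 to 17.5%) carried a control H4K16ac peak and 540 (2.23 to 2.64%) a butyrate one. Of 61089 H3K9ac peaks gained with butyrate, 10.9% carried a control H4K16ac peak and 5.19% a butyrate one. In peaks per Mb of these sites, the values were 203.1 and 26.9 at the control sites and 215.9 and 100.7 at the gained ones, ratios of 0.132 and 0.467, the latter close to the 0.459 of the whole lists. The share of H4K16ac peaks lying on an H3K9ac peak of their own condition was 5.60% in control and 11.9% with butyrate, when the H3K9ac list itself had gone from 22215 to 79356 peaks. Of the butyrate H4K16ac peaks 1.61% (1.48 to 1.75%) lay on a control H3K9ac peak, beside 5.60% (5.44 to 5.77%) of the control ones.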

How the data were processed

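H4K16ac and H3K9ac chromatin immunoprecipitation was read in 1 library per condition. CASAVA 1.7, MACS2 2.1.0 and the build hg19 (GRCh37) are named in the submitters' processing notes. For the aligner, the duplicate filter and the use of controls, the step is not given in the sources used here. Over 14052 genes, the deposited gene starts and the RefSeq GRCh38.p14 starts were 65 bp apart at the median, so coordinates are read as GRCh38 and printed with 1 added to the start. The authors deposited, for each peak, a fold ratio over background, −log10 p and q values, and a score, which is 10 times −log10 p in the H4K16ac lists. These are the authors' own values and were used to describe, rank and filter peaks. The input libraries were not analysed here.

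Rows sharing bases were merged on chromosomes 1 to 22 and X. From fold and −log10 p the whole number of fragments at each summit and the local background were recovered (100% of rows, tolerance 0.01), in fragments of each library. Depth was implied from the lowest background and the narrowest peak, with an assumed genome of 2.7 Gb. Gene starts were those of the RefSeq promoter table and all starts the authors gave for the same gene near it on its chromosome. Whether the strands of the sources agreed was not checked. Genes outside the promoter table also got the RefSeq boundary at their start side. The promoter peaks of a kept gene can thus lie at different starts, as at NINJ2. Of 19974 protein-coding genes, 316 were left out and 1129 with no start and no histone peak near count as having none. Overlaps needed 1 bp. Exact (Clopper-Pearson) 95% intervals cover counting only. The overlap and recovery code was tested on simulated data. Alternatives were stricter p and q limits, equal list lengths, other overlaps, a 2.5 kb promoter window and the authors' own gene columns.

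The named genes follow a rule: per list up to 3 lost, gained and kept genes by −log10 q, then the strongest kept, lost and gained promoters, the genes and 100 kb windows with the most peaks, and the widest peaks, not all of which are printed. Members and lists were chosen with earlier results of these data known. Python 3.11.15, pandas 2.3.3, SciPy 1.17.1 and matplotlib 3.10.9 were used.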

Additional observations from a re-analysis of the deposited data

How the results depend on the processing

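No paired analysis was possible because each condition has 1 library and no result comes from a test. The limits are the loose p threshold, the few fragments per peak and the lack of replicates. How well each immunoprecipitation enriched cannot be told apart from the treatment. The cause of the changes below was not tested.

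With peaks of q 0.05 or less, 29141 control and 381 butyrate peaks were left, 29085 lost, 326 gained and 0.192% of control peaks kept. Promoter genes were 4 kept, 2136 lost (99.8%) and 4 gained. Promoter and body shares were 7.60% and 65.5% in control and 2.0997% and 48.3% with butyrate, and 7.61% and 15.2% of peaks lay on H3K9ac. Ratios of butyrate to control body peaks, chosen after seeing the data, were 0.00679 in genes with H3K9ac in both conditions, 0.0298 where it was gained and 0.0362 where it was absent. Within 500 bp of starts no butyrate peak was left, so both ratios were 0, against 524 and 60 control peaks.

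With p of 0.001 or less, 20808 butyrate peaks were left, 18437 of them gained, and 4.26% of control peaks were kept. Of promoter genes 262 were kept and 91.9% lost. Promoter and body shares in control were 6.51% and 67.2%, and 6.10% and 12.5% of peaks lay on H3K9ac. The body ratios were 0.226, 0.757 and 0.743 in the same order, and 0.521 within 500 bp of starts without H3K9ac.

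With both lists at 33752 peaks, 31293 control peaks were lost and 7.29% kept, and 282 promoter genes were kept and 2075 lost. Promoter and body shares in control were 7.34% and 65.8%, and 7.26% of peaks lay on H3K9ac. The body ratios were 0.629, 1.87 and 1.94, and those within 500 bp of starts 0.0918 with H3K9ac and 1.53 without. The ratio was lower in genes with H3K9ac in both conditions than in the other 2 classes under each of these 3 settings, but in the other 2 classes it went above 1 with lists of equal length.

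With overlap of at least 0.5 of the shorter peak, 4.01% of control peaks were kept and 4.49% and 8.47% of peaks lay on H3K9ac, and with peaks within 1 kb counted as shared 15.6% were kept. With a 2.5 kb promoter window 1737 genes were kept, 1277 gained and 70.5% lost, and promoter and body shares were 12.01% and 64.1% in control and 10.1% and 47.3% with butyrate. With the authors' own closest-gene columns 153 were kept, 2027 lost (93.0%) and 315 gained. Of 36 gene lists, 33 stayed on the same side of the all-gene body ratio with equal list lengths and 30 with p of 0.001 or less. At q of 0.05 or less too few butyrate peaks are left in the lists for this count to say anything.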
